A study of Mus musculus with 12 samples.

Results

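Expression of 9 transcription factor genes of the embryonic pallium was followed through a perturbation of Dmrt3 and Dmrta2 in the mouse medial telencephalon: Emx1, Emx2, Lhx2, Lhx9, Nr2f1, Nr2f2, Sp8, Nr2e1 and Zbtb20. They were taken by name and not by a rule on measured values, but earlier results of these data were known when they were chosen. All 9 were found among the 19751 named genes on the array, through 13 of its 39429 probes. Gene expression was measured on 12 one-colour Agilent mouse arrays, in 4 groups of 3 independent replicates from CD-1 embryos. The RNA came from GFP-positive cells that were sorted 24 hours after electroporation of the medial telencephalon at E11.5 (embryonic day), so at E12.5, and every group carried a vector for nuclear EGFP (EGFPNLS). The groups were an expression plasmid for Dmrta2 (the plasmid group), a second and a first set of siRNAs against Dmrt3 and Dmrta2 together (set 2 and set 1), and control siRNAs. The study asked which genes follow a loss or a gain of these DM-domain factors in the dorsomedial telencephalon. Control siRNAs were the only control, and no array with an empty expression plasmid was analysed here, so the plasmid comparison is also one of plasmid against siRNA. Labels do not say how many embryos were pooled in a replicate, nor which cells of the medial wall took up the DNA.

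These factors divide the progenitor sheet of the dorsal telencephalon into territories. Emx1 and Emx2 are homeodomain factors of cortical progenitors, Emx2 in a gradient that is highest caudomedially, and Lhx2 is the LIM-homeodomain selector that gives the neuroepithelium a cortical rather than a hem fate. Nr2f1 (COUP-TFI) and Nr2f2 (COUP-TFII) are orphan nuclear receptors that favour caudal identity, Sp8 is a zinc finger factor of the rostromedial pole that opposes them, Nr2e1 (Tlx) keeps progenitors dividing, and Zbtb20 is a zinc finger repressor of the hippocampal primordium. Lhx9 is a LIM-homeodomain relative of Lhx2 found in early cortical cells and in the diencephalon. Dmrt3 and Dmrta2 belong to the same medial to lateral patterning network.

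The promoters of Nr2f1, Nr2f2, Emx2, Lhx9 and Sp8 are shown because these are the genes with a probe whose set 2 arrays all lay beyond the set 1 arrays, a choice made after the values were seen. The sequences are RefSeq windows of GRCm38.p6 that run from 250 bases before to 50 bases after an annotated start, 5′ to 3′ on the strand of the gene. Capitals mark matches to any of 5 motifs searched on both strands: ACANTGT (a DM-domain core), TAATTA (a homeodomain core, as for Emx and Lhx proteins), AGGTCA (a nuclear receptor half-site), AAGTCA (the half-site of Nr2e1) and GGGCGG (a GC box, bound by Sp proteins).
The windows are Nr2f1 at chr13:78198824-78199123 and chr13:78196400-78196699, Nr2f2 at chr7:70366697-70366996, Emx2 at chr19:59458440-59458739, Lhx9 at chr1:138842395-138842694, and Sp8 at chr12:118846983-118847282 and chr12:118847309-118847608. Another Sp8 window, upstream of these, held no match and is not printed. Nr2f1, Nr2f2 and Lhx9 lie on the minus strand, Emx2 and Sp8 on the plus strand.
Nr2f1, upstream start: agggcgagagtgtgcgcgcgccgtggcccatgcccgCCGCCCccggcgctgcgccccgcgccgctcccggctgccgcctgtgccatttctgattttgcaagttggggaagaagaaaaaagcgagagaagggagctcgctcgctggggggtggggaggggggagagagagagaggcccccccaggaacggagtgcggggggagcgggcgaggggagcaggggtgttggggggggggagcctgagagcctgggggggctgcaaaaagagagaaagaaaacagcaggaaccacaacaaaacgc
Nr2f1, downstream start: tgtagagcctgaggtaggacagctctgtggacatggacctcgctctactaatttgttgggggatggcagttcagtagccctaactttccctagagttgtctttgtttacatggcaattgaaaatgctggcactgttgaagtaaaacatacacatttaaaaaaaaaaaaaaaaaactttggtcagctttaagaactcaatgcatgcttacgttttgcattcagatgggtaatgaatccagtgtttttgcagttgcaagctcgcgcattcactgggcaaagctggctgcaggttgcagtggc
Nr2f2: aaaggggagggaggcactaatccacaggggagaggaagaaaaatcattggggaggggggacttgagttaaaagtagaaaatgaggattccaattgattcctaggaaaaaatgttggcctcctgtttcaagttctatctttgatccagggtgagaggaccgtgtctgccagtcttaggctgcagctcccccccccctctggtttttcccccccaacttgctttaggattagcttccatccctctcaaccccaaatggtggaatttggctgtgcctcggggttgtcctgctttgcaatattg
Emx2: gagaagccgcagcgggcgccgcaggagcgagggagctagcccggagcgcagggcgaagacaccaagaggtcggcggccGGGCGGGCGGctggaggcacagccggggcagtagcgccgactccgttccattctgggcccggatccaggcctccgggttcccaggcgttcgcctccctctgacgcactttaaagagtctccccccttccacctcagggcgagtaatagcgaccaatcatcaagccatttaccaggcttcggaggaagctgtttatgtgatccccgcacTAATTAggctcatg
Lhx9: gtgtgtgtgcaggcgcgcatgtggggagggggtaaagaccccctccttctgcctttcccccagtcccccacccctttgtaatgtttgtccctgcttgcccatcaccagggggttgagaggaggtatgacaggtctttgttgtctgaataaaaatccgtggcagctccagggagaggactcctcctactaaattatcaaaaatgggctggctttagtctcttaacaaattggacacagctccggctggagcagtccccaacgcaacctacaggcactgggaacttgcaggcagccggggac
Sp8, middle start: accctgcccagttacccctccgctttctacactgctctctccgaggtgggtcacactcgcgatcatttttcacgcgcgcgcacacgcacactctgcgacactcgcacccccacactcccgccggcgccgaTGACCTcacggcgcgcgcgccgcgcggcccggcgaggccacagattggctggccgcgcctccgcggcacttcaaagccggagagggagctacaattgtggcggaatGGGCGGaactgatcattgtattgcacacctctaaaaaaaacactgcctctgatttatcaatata
Sp8, downstream start: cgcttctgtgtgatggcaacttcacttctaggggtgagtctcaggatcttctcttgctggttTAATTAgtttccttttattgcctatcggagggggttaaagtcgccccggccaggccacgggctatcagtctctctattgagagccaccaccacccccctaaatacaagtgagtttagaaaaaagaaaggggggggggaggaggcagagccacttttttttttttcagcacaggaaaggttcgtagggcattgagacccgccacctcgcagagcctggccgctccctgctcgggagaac
Over the 13 RefSeq windows of all 9 genes the DM-domain core ACANTGT was found in 0, against 7.54% of 32851 mouse promoter windows of the same length. TAATTA stood in 2 of the 13 windows (Emx2 and Sp8) against 5.29% of all promoters, and GGGCGG in 5 of 13 against 35.7%. AGGTCA stood in 1 window (Sp8) against 16.3% of all promoters, and AAGTCA in 1 (Nr2e1) against 15.1%. These are matches of letters in short windows and not measured binding.

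Levels are given as the log2 processed signal minus the 75th percentile of the array, so 0 is the signal of the probe at that percentile, and they are compared between groups only for the same probe. All 13 probes were well above background on all 12 arrays. That percentile lay between signals of 572 and 1142, the detected share of spots was 67.1% to 72.2%, and replicate arrays had r = 0.979 to 0.994 across genes. Each of the 3 slides held 1 array of each group, and the replicate number is the slide. Each group always lay at the same place on the slide, so place and group cannot be told apart. Progenitor genes such as Sox2 were well above background on every array, with 9 of 9 progenitor markers detected in all groups. Their summed linear levels ran from 127 to 154 on the plasmid arrays, 150 to 174 with set 2, 153 to 158 with set 1 and 140 to 151 with control siRNAs. Against control 0 of the 9 passed (limma, adjusted p under 0.05). Against the average of both siRNA sets 2 of 9 were lower in the plasmid group, where 2.15% of all genes passed. The part of progenitor content in the levels of the 9 genes was not tested.

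The targeted genes were read first. Dmrt3 had 0.28 ± 0.36 on the plasmid arrays, -0.44 ± 0.39 with set 2, -0.66 ± 0.50 with set 1, and 0.36 ± 0.31 with control siRNAs (SD, n = 3 each). All 6 siRNA arrays lay below all 3 control arrays, but the difference of the siRNA average from control, -0.91 ± 0.26 (SE), had a limma adjusted p of 0.162 (0.0278 when the slide was fitted as a block). Dmrta2 had 2.07 ± 0.12 on the plasmid arrays, 2.26 ± 0.29 with set 2, 1.96 ± 0.16 with set 1 and 2.57 ± 0.18 with control siRNAs (SD, n = 3 each). Set 1 differed from control by -0.61 ± 0.16, with all its arrays below the control arrays, and set 2 by -0.31 ± 0.16, where arrays overlapped (SE). The siRNA average differed by -0.46 ± 0.14 (limma adjusted p = 0.204). The Dmrta2 probe was not higher in the plasmid group than in the control group. All 3 plasmid arrays lay below all 3 control arrays, and the difference was -0.50 ± 0.16 (SE, limma adjusted p = 0.574). Whether that probe lies in the sequence the plasmid carries is not given in the sources used here, so it does not check the label. In what follows the plasmid arrays are those labelled as such.

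None of the 9 genes changed by the test in any of the 6 comparisons made (0 of 9 with limma, adjusted p under 0.05, over 15369 genes). With normexp background correction, which left 3 arrays with a high floor, 4 of the 9 passed for plasmid against control and 5 for plasmid against the siRNA average, where 9909 and 10693 genes passed. For the plasmid group against control siRNAs 0.273% of all genes passed, for set 2 against control 1.02%, for set 1 against control 0.234%, for the average of both sets against control 0.67%, for the plasmid group against the siRNA average 2.15%, and for set 2 against set 1 0.0781%. At an unadjusted p under 0.05 the members numbered 0 of 9 for plasmid against control, 2 for set 2, 0 for set 1, 0 for the siRNA average, 2 for plasmid against the siRNA average and 2 for set 2 against set 1. The shares of all genes at that level were 4.44%, 12.8%, 10%, 12.1%, 13.3% and 9.77% in the same order, beside which 0 to 2 of 9 is no result about these genes as a set. With the slide fitted as a block the members at that level numbered 1, 4, 0, 0, 4 and 3 in the same order. After adjustment 0 passed in that fit (lowest limma adjusted p = 0.0743). The share of all genes at that level was not counted there, so these numbers are not read as a result about the 9 genes. Regardless of sign, the median size of the log2 difference of the 9 genes was 0.145 for plasmid against control (all genes 0.0956), 0.335 for set 2 (0.173), 0.144 for set 1 (0.155), 0.172 for the siRNA average (0.147), 0.172 for plasmid against that average (0.149) and 0.199 for set 2 against set 1 (0.155). With sign, the median log2 difference of the 9 genes was -0.12 for plasmid against control, 0.07 for set 2, -0.06 for set 1 and -0.03 for the siRNA average, while over all genes it was 0.00, 0.00, -0.01 and -0.01. Against each other the plasmid and the siRNA average differed by a median of -0.03 (all genes 0.01), and set 2 and set 1 by 0.18 (all genes 0.02). The 4 comparisons with control share the same 3 control arrays. A p that misses the threshold does not show that a level is the same. The intervals below, from the fit without a slide block, say how large a difference each gene could still have had in that fit. In sorted bulk RNA, fewer cells of a type and less RNA per cell cannot be told apart.

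**Figure D1:**
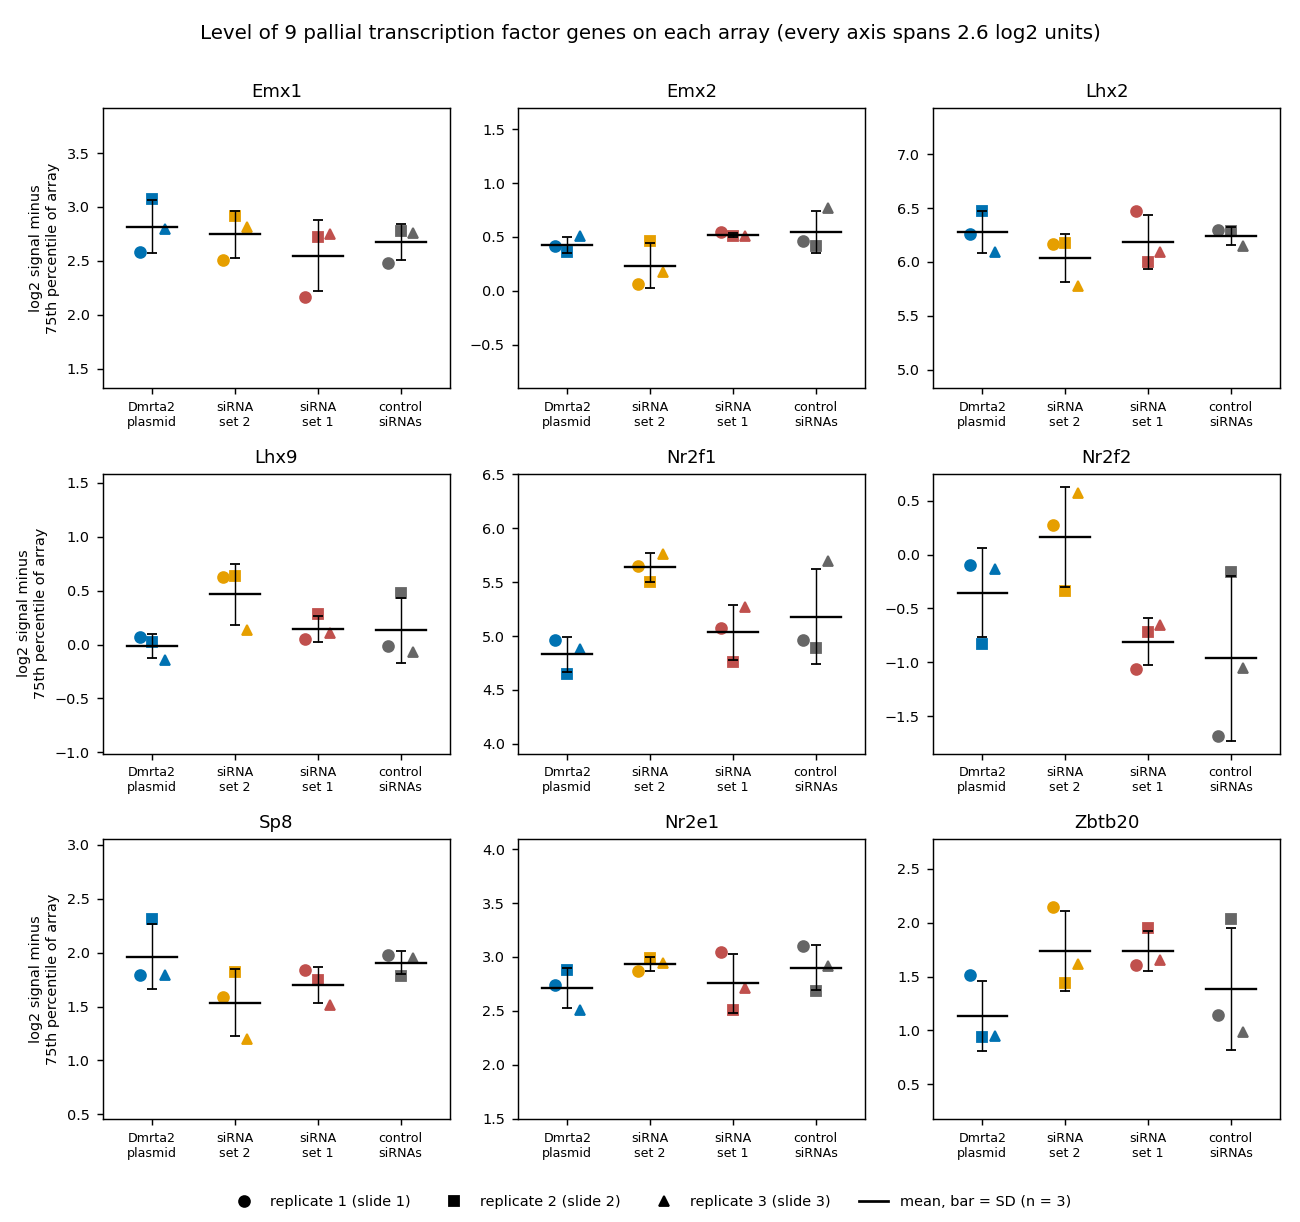
Level of each of the 9 genes on every array, as log2 signal minus the 75th percentile of the array, by its brightest probe, for the plasmid, set 2, set 1 and control groups; circles, squares and triangles are slides 1, 2 and 3, lines the means and bars the SD (n = 3). All groups overlap for Emx1, Lhx2, Sp8 and Nr2e1. The set 2 arrays of Nr2f1 (5.50 to 5.76) and Nr2f2 (-0.34 to 0.57) lie above their set 1 arrays, and those of Nr2f1 also above its plasmid arrays. For Emx2 the set 2 arrays lie below the set 1 arrays. The plasmid arrays lie below the set 2 arrays for Lhx9 and below the set 1 arrays for Zbtb20.

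Nr2f2, the caudal and ventral orphan receptor, had the widest spread and the largest difference. It read -0.09, -0.83 and -0.14 on the plasmid arrays of slides 1 to 3, 0.27, -0.34 and 0.57 with set 2, -1.06, -0.72 and -0.65 with set 1, and -1.68, -0.16 and -1.05 with control siRNAs. Set 2 held the 2 highest arrays of all 12, the control arrays spread wider than those of any other group, and all groups overlapped except set 2 and set 1, where set 2 lay above. Set 2 stood 1.13 ± 0.37 above control (SE; 95% interval 0.31 to 1.95), a 2.19-fold difference with an interval of 1.24 to 3.87, at an unadjusted p of 0.0118 and a limma adjusted p of 0.212. Within slides that difference was 1.95, -0.18 and 1.62, so slide 2, where the control array was high, went the other way. Without the control array of slide 2 it was 1.53 with an adjusted p of 0.0735, and without that of slide 1 it was 0.77. The plasmid group stood 0.61 ± 0.37 above control (95% interval -0.21 to 1.43; within slides 1.59, -0.67 and 0.91), and set 1 0.15 ± 0.37 (interval -0.67 to 0.97). For the siRNA average the difference was 0.64 ± 0.32, and it had the lowest limma adjusted p among the 9 genes in that comparison, 0.480.

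Nr2f2 is also expressed in endothelium and mesenchyme, so those markers are given beside it, followed by those of microglia and of the ventral telencephalon (subpallium). Summed over 8 endothelial markers (linear signal relative to the 75th percentile) the level ran from 5.51 to 12.4 on the plasmid arrays, 5.85 to 11.7 with set 2, 4.66 to 12.7 with set 1 and 6.10 to 12.2 with control siRNAs, which overlapped, and 0 of the 5 markers tested passed (0 at an unadjusted p under 0.05, limma). Kdr, a VEGF receptor, made up most of these sums and read 3.20 ± 0.68, 3.003 ± 0.50, 3.06 ± 0.79 and 3.17 ± 0.53 in the same order on the log2 scale (SD, n = 3 each). The median log2 difference from control over the 5 tested was 0.93 for the plasmid and 0.74 for set 2, each with 4 of 5 positive, and 0.34 for set 1. Flt1, another VEGF receptor, differed from control by 1.16 ± 0.67 with the plasmid, 1.29 ± 0.67 with set 2 and 0.43 ± 0.67 with set 1. Cldn5, a tight junction gene, differed by 0.93 ± 0.64, 0.74 ± 0.64 and 0.34 ± 0.64 in that order. Of the control arrays only 1 had Flt1 well above background, and 0 had Cdh5, another of the 5 markers. Pecam1, detected on all 12 arrays, read -3.65 ± 0.27 with the plasmid, -3.37 ± 0.26 with set 2, -3.61 ± 0.30 with set 1 and -3.54 ± 0.18 with control siRNAs (SD). Over 9 mesenchymal markers the sums ran from 1.53 to 2.03 on the plasmid arrays, 1.61 to 1.94 with set 2, 2.07 to 8.13 with set 1 and 1.33 to 1.68 with control siRNAs, and 0 of the 6 tested passed (limma; 1 or 2 at an unadjusted p under 0.05, by comparison). The set 1 array of slide 1 was high for mesenchyme (8.13) and also for erythroid markers (18.7, against 1.78 and 4.06 on the other set 1 arrays). Leaving that array out called 0 of the 9 genes in every comparison. Microglial markers did move with groups: 4 of 10 tested rose in the plasmid group and 6 of 10 with set 2 against control siRNAs (adjusted p under 0.05, limma). Of all genes 0.273% and 1.02% passed there. With set 1 0 of 10 passed (0.234% of all genes), and for the siRNA average 4 of 10 (0.67%). Cx3cr1, a chemokine receptor of microglia, rose by 1.60 ± 0.21 with the plasmid and 1.65 ± 0.21 with set 2. Sums of the microglial markers were 3.44 to 6.43 on the plasmid arrays, 3.49 to 6.40 with set 2, 2.27 to 5.78 with set 1 and 2.42 to 6.07 with control siRNAs. Csf1r, the brightest marker tested, weighed most in these sums and had means of 1.89, 1.92, 1.71 and 1.92 in that order. The median log2 difference of the 10 from control was 1.58 with the plasmid, 1.64 with set 2 and 0.68 with set 1, each with 9 of 10 positive. Sums of 11 subpallial markers ran from 1.71 to 2.30, 1.12 to 1.49, 1.33 to 2.09 and 1.54 to 2.02 in the order of the microglial sums. Of 10 subpallial markers tested 0 passed against control (limma). At an unadjusted p under 0.05 there were 5 with set 2, 3 with set 1 and 0 with the plasmid (12.8%, 10% and 4.44% of all genes). Median log2 differences were 0.70, 0.85 and 0.18, with 6, 7 and 9 of 10 positive. Dlx1, one of them, was well above background on 3 set 1, 2 set 2 and 0 plasmid or control arrays, so it was kept through the siRNA groups. The part of endothelial, mesenchymal, microglial and subpallial RNA in the levels of Nr2f1 and Nr2f2 was not tested.

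Nr2f1, the paralogue expressed strongly across the caudal cortex, differed more between treated groups than between them and control. Its brighter probe read 4.96, 4.65 and 4.88 on the plasmid arrays, 5.65, 5.50 and 5.76 with set 2, 5.07, 4.76 and 5.27 with set 1, and 4.96, 4.89 and 5.69 with control siRNAs. The 3 set 2 arrays lay above every plasmid and every set 1 array, and among the control arrays only that of slide 3 reached them. Set 2 stood 0.46 ± 0.22 above control (95% interval -0.02 to 0.93; within slides 0.69, 0.61 and 0.07) and the plasmid group -0.35 ± 0.22 from it (interval -0.83 to 0.13; within slides -0.0050, -0.24 and -0.81). Set 1 differed from control by -0.15 ± 0.22, with an interval of -0.63 to 0.33. In order of mean level the groups ran from set 2 (5.64 ± 0.13) over control (5.18 ± 0.44) and set 1 (5.03 ± 0.26) to plasmid (4.83 ± 0.16; SD, n = 3 each), and only neighbours set 2 and control were further apart than the SD of 0.44 among control arrays. The control array of slide 3 decided much of this: without it set 2 stood 0.71 above control (adjusted p = 0.144, limma) and the plasmid group -0.09 from it.

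Set against each other, set 2 stood 0.60 ± 0.22 above set 1 for Nr2f1 (95% interval 0.13 to 1.08; 1.52-fold), with within-slide differences of 0.58, 0.74 and 0.49. The unadjusted p was 0.0181, the limma adjusted p 0.367 (0.125 when blocked by slide). The plasmid group differed from the siRNA average by -0.50 ± 0.19 (interval -0.92 to -0.09), and by -0.40, -0.48 and -0.63 within slides, with an adjusted p of 0.256 and, blocked, 0.0743. A second Nr2f1 probe read 3.86, 3.22 and 3.63 on the plasmid arrays, 4.60, 4.04 and 4.16 with set 2, 4.07, 3.61 and 3.85 with set 1, and 3.93, 3.84 and 4.17 with control siRNAs. It gave 0.42 ± 0.21 for set 2 against set 1, where its arrays overlapped, and -0.49 ± 0.18 for plasmid against the siRNA average. The paralogue Nr2f2 went with it in the first of these comparisons, 0.98 ± 0.37 for set 2 against set 1 (interval 0.16 to 1.80; within slides 1.33, 0.38 and 1.22; adjusted p = 0.412), and stood at -0.03 ± 0.32 in the second.

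For set 2 against set 1 the arrays of 3 of the 9 genes did not overlap, with Nr2f1 and Nr2f2 above and Emx2 below, and among all genes 14% did not overlap in that comparison, 7.67% above and 6.29% below. For the other comparisons the count was 0 of 9, against 7.55% of all genes for plasmid against control, 18% for set 2, 14.7% for set 1, 5.32% for the siRNA average and 7.12% for plasmid against that average.

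**Figure D2:**
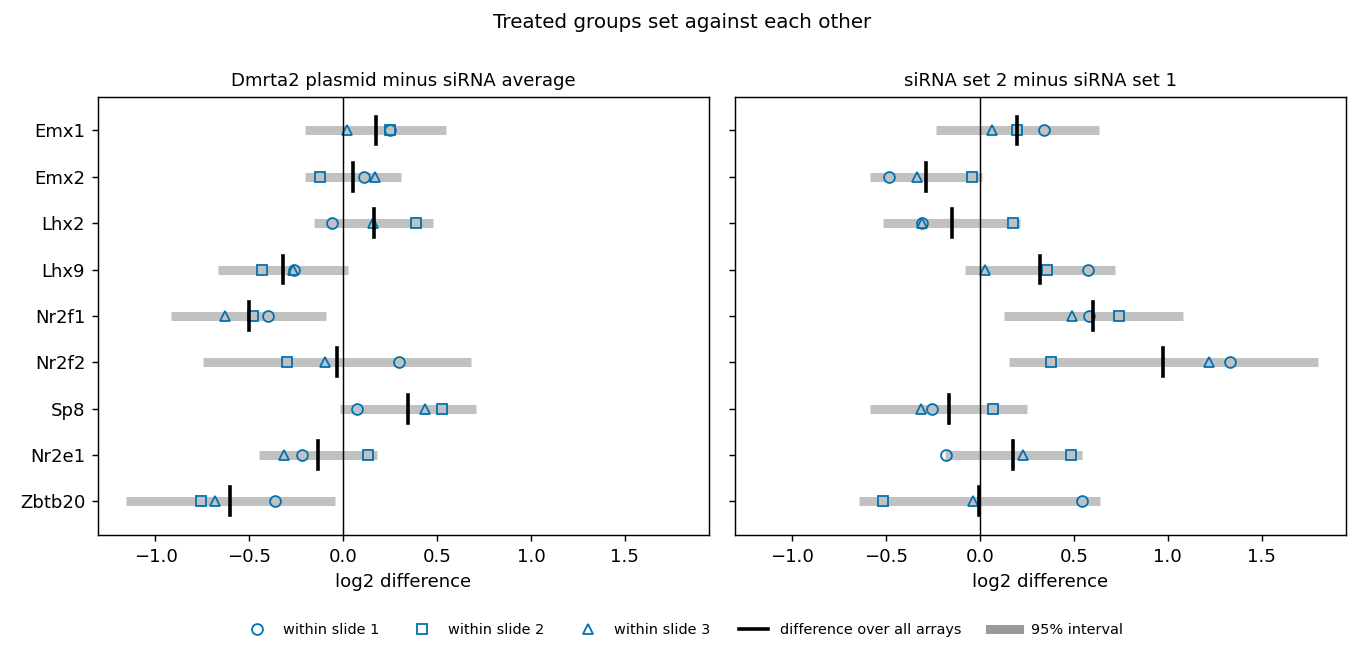
Log2 differences of the 9 genes between treated groups, plasmid minus the siRNA average on the left and set 2 minus set 1 on the right; black bars are the differences over all arrays, grey bars their 95% intervals in the limma fit and open symbols the differences within slides 1, 2 and 3. For Nr2f1 all slides lie below 0 on the left (-0.40 to -0.63) and above 0 on the right (0.49 to 0.74).

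Nr2e1, the Tlx receptor that maintains dividing progenitors, was among the steadiest of the genes, with a range of 0.59 over all 12 arrays. It read 2.74, 2.88 and 2.51 on the plasmid arrays, 2.87, 2.99 and 2.94 with set 2, 3.05, 2.51 and 2.71 with set 1, and 3.10, 2.68 and 2.92 with control siRNAs. The 4 groups overlapped. Differences from control were -0.19 ± 0.16 for the plasmid (95% interval -0.55 to 0.17), 0.03 ± 0.16 for set 2 (-0.33 to 0.40) and -0.14 ± 0.16 for set 1 (-0.51 to 0.22).

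Emx1, the homeobox gene of cortical progenitors, followed the slide more than the group. It read 2.58, 3.07 and 2.80 on the plasmid arrays, 2.50, 2.92 and 2.81 with set 2, 2.16, 2.72 and 2.75 with set 1, and 2.48, 2.78 and 2.76 with control siRNAs. Slide 1 was the lowest in all 4 groups, and the slide held 70.8% of the variance of Emx1 against 19.9% for the group. Its differences from control were 0.14 ± 0.20 for the plasmid (95% interval -0.29 to 0.58), 0.07 ± 0.20 for set 2 (-0.36 to 0.50) and -0.13 ± 0.20 for set 1 (-0.56 to 0.31). These SE and intervals count the spread between slides as error. With the slide fitted as a block the SE was 0.098 for each, and the limma adjusted p were 0.9998, 0.737 and 0.583. Within slides the set 1 values were -0.32, -0.05 and -0.01.

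Emx2, whose gradient is highest caudomedially, read 0.41, 0.36 and 0.51 on the plasmid arrays, 0.06, 0.46 and 0.17 with set 2, 0.54, 0.50 and 0.51 with set 1, and 0.46, 0.41 and 0.77 with control siRNAs. The set 2 arrays of slides 1 and 3 were the lowest of all, and the third overlapped the control arrays. Set 2 differed from control by -0.32 ± 0.13 (95% interval -0.61 to -0.02; 80.4% of the control level) at an unadjusted p of 0.0391 and a limma adjusted p of 0.356, and within slides by -0.40, 0.05 and -0.60. It differed from set 1 by -0.29 ± 0.13, with every set 2 array below every set 1 array (adjusted p = 0.523, limma). The plasmid group differed from control by -0.12 ± 0.13 (interval -0.42 to 0.18) and set 1 by -0.03 ± 0.13 (interval -0.32 to 0.27).

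**Figure D3:**
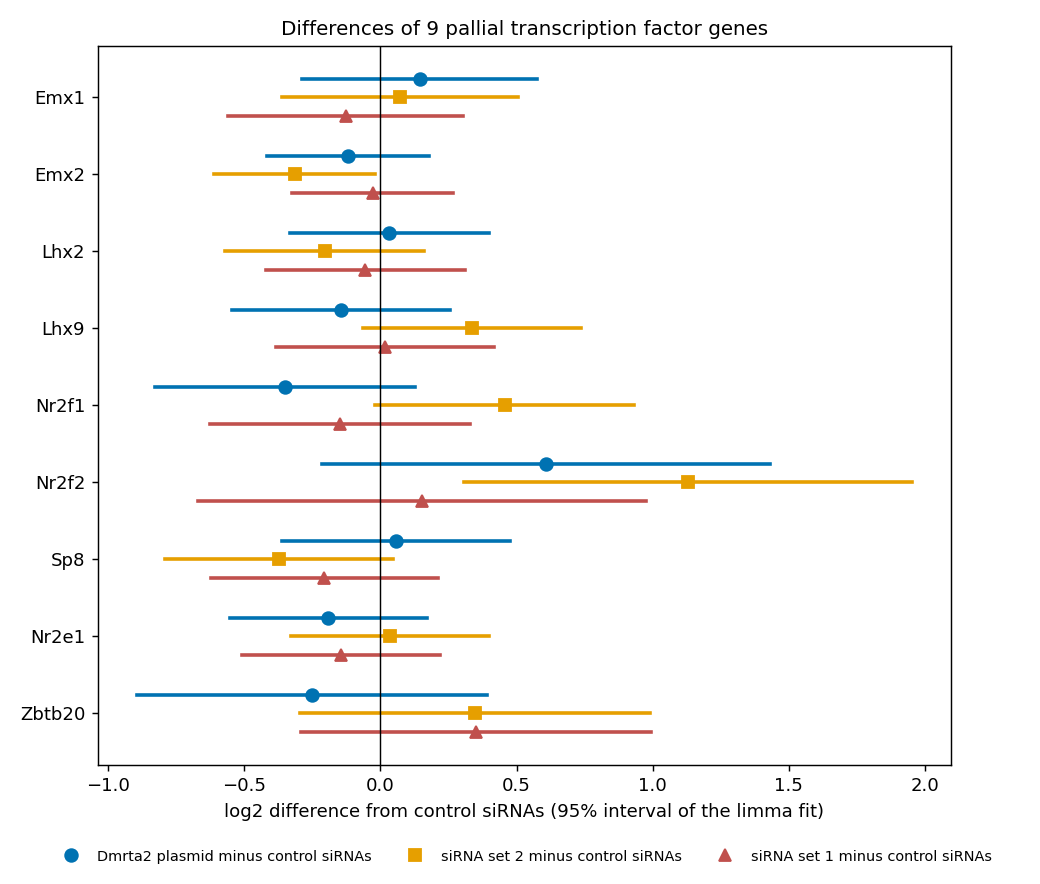
Log2 differences of the 9 genes from control siRNAs with 95% intervals of the limma fit, for the plasmid (circles), set 2 (squares) and set 1 (triangles). The intervals that leave out 0 are those of Nr2f2 (0.31 to 1.95) and Emx2 (-0.61 to -0.02) with set 2, and neither passed after adjustment.

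Lhx2, the cortical selector, read 6.26, 6.48 and 6.09 on the plasmid arrays, 6.16, 6.17 and 5.78 with set 2, 6.47, 6.001 and 6.09 with set 1, and 6.30, 6.28 and 6.15 with control siRNAs. The groups overlapped. Differences from control were 0.03 ± 0.16 for the plasmid (95% interval -0.33 to 0.40), -0.20 ± 0.16 for set 2 (-0.57 to 0.16) and -0.06 ± 0.16 for set 1 (-0.42 to 0.31). In fold terms the set 2 level was 86.8% of control, with bounds of 0.674 and 1.12.

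Lhx9, its LIM-homeodomain relative, had 3 probes, and they did not give 1 answer. The brightest, A_55_P2111264, read 0.07, 0.02 and -0.14 on the plasmid arrays, 0.62, 0.64 and 0.14 with set 2, 0.05, 0.28 and 0.11 with set 1, and -0.02, 0.48 and -0.07 with control siRNAs. By it set 2 differed from control by 0.34 ± 0.18 (95% interval -0.07 to 0.74) and set 1 by 0.02 ± 0.18, and both overlapped the control arrays. The other two probes, A_55_P2111267 and A_55_P2117853, are assigned to another RefSeq transcript of Lhx9. A_55_P2111267 read -0.93, -1.40 and -0.88 on the plasmid arrays, -0.995, -1.59 and -1.86 with set 2, -0.56, -0.50 and -0.97 with set 1, and -1.23, -0.91 and -1.37 with control siRNAs. Here set 1 was the high group and set 2 the low one, the reverse of their order by the first probe. Set 2 differed from set 1 by -0.80 ± 0.24 by this probe, with every array below (unadjusted p = 0.00700, limma adjusted p over probes = 0.270), and by -0.56 ± 0.26 by A_55_P2117853, against 0.32 ± 0.18 by A_55_P2111264. Against control these 2 probes gave 0.50 ± 0.24 and 0.50 ± 0.26 for set 1, and -0.31 ± 0.24 and -0.05 ± 0.26 for set 2. Over the 12 arrays, as a description, the probes of the shared transcript correlated at r = 0.90 with each other, and at -0.05 and 0.19 with the brightest probe. The signed difference of Lhx9 thus depended on the probe, and a transcript-specific difference was not tested.

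**Figure D4:**
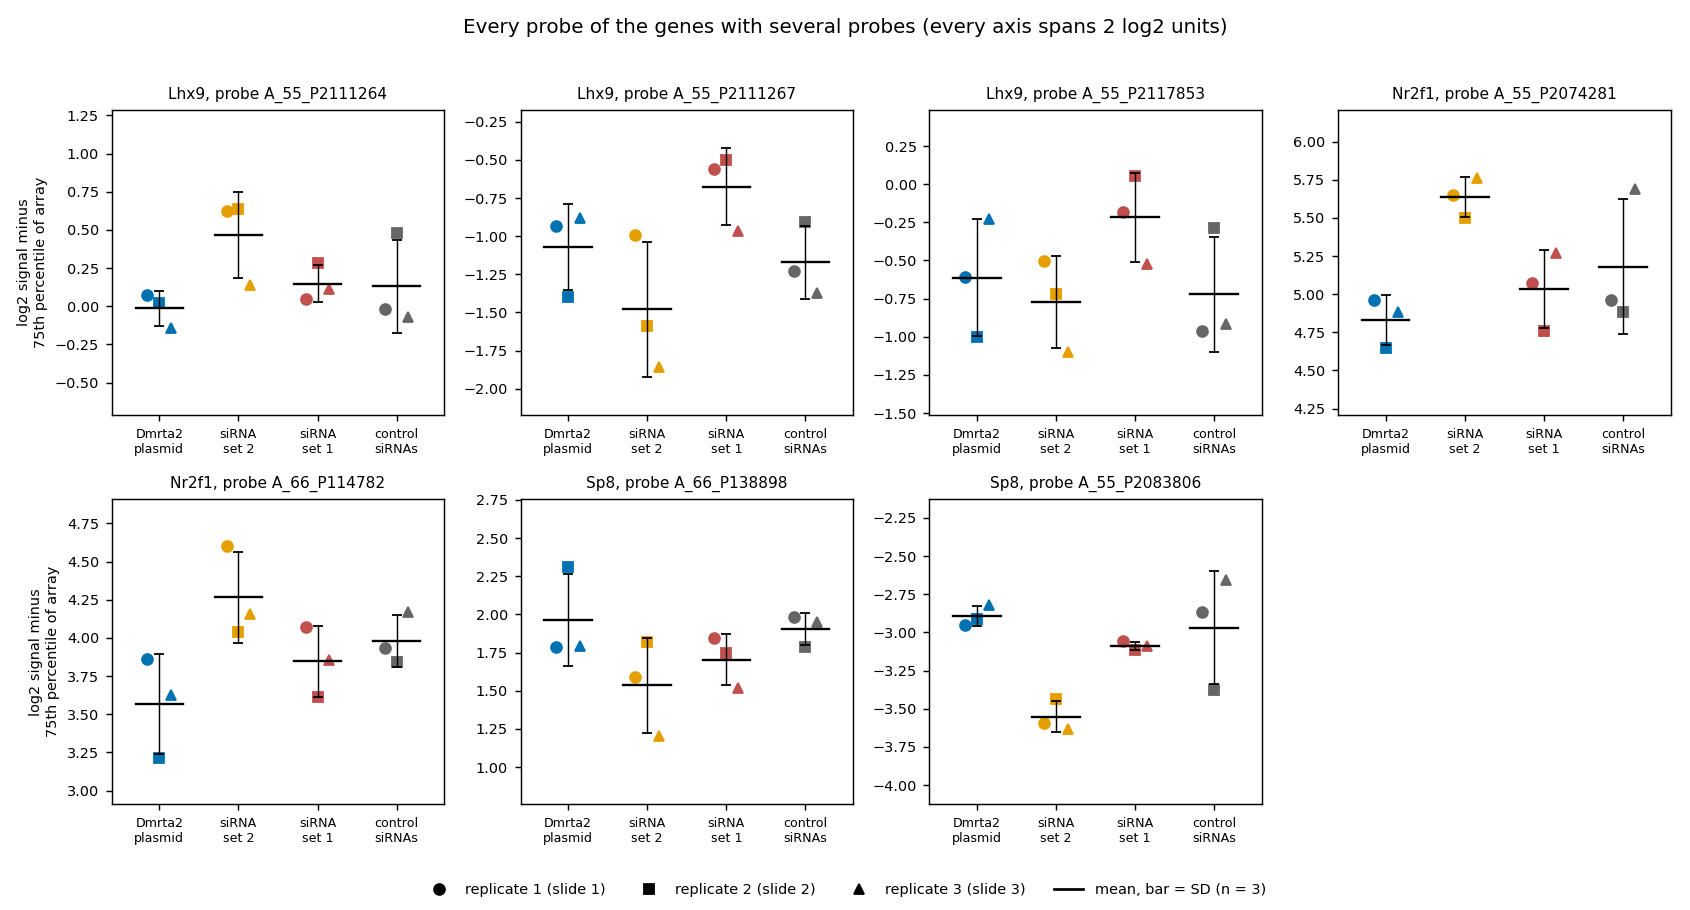
Every probe of Lhx9, Nr2f1 and Sp8 on each array, as log2 signal minus the 75th percentile of the array, for the plasmid, set 2, set 1 and control groups; symbols are slides, lines means and bars SD (n = 3). The 2 lower Lhx9 probes share an order of groups that the first Lhx9 probe does not, while the probe pairs of Nr2f1 and of Sp8 run alike, with set 2 highest for Nr2f1 and lowest for Sp8.

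Sp8, the rostromedial zinc finger factor, had its lowest mean with set 2, where Nr2f1 and Nr2f2 had their highest. Its brighter probe read 1.79, 2.31 and 1.79 on the plasmid arrays, 1.59, 1.82 and 1.20 with set 2, 1.84, 1.74 and 1.52 with set 1, and 1.98, 1.79 and 1.95 with control siRNAs. Set 2 differed from control by -0.37 ± 0.19 (95% interval -0.79 to 0.05; within slides -0.39, 0.03 and -0.75; limma adjusted p = 0.467), set 1 by -0.21 ± 0.19 and the plasmid group by 0.06 ± 0.19. The dim probe A_55_P2083806 read -2.95, -2.91 and -2.82 on the plasmid arrays, -3.59, -3.44 and -3.63 with set 2, -3.06, -3.11 and -3.09 with set 1, and -2.87, -3.38 and -2.66 with control siRNAs. By this probe all set 2 arrays lay below all arrays of the other 3 groups. The difference was -0.58 ± 0.16 from control (unadjusted p = 0.00484, adjusted p over probes 0.160) and -0.47 ± 0.16 from set 1 (adjusted p = 0.365). The plasmid group stood 0.43 ± 0.14 above the siRNA average by the dim probe and 0.35 ± 0.16 above it by the bright one (adjusted p = 0.205 and 0.405, limma). The 2 probes correlated at r = 0.66 over the 12 arrays.

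Zbtb20, the repressor of the hippocampal primordium, read 1.51, 0.94 and 0.95 on the plasmid arrays, 2.15, 1.44 and 1.62 with set 2, 1.61, 1.95 and 1.65 with set 1, and 1.14, 2.04 and 0.98 with control siRNAs. The control array of slide 2 was as high as the siRNA arrays, and the other two control arrays were in the range of the plasmid arrays. Differences from control were -0.25 ± 0.29 for the plasmid (95% interval -0.90 to 0.39), 0.35 ± 0.29 for set 2 and 0.35 ± 0.29 for set 1 (both with intervals of -0.29 to 0.99). The plasmid group stood -0.60 ± 0.25 from the siRNA average (interval -1.16 to -0.05; 65.9% of its level), below it on every slide by -0.36, -0.76 and -0.68, at an unadjusted p of 0.0366 and a limma adjusted p of 0.326.

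The surrounding network was read through 4 lists: 26 other pallial regulators, 23 relatives of the 9 factors by family (19 tested), 16 cofactors of LIM, nuclear receptor and related factors, and 12 genes of the cortical hem, the Wnt and Bmp signalling centre at the medial edge. Against control siRNAs 0 genes of any of the 4 lists passed in the plasmid, set 2, set 1 or siRNA average comparison (limma; 2, 3, 6 and 3 of 26 pallial regulators had an unadjusted p under 0.05, 1, 3, 4 and 2 of 19 relatives, 2, 3, 3 and 2 of 16 cofactors, and 4, 2, 2 and 2 of 12 hem genes). Set 2 against set 1 also gave 0 (3, 3, 3 and 4 genes of the lists at that level). Of all genes 4.44%, 12.8%, 10% and 12.1% had an unadjusted p under 0.05 in the comparisons with control, in the order given. For set 2 against set 1 that share was 9.77%. Blocked by slide, some genes passed: Meis2, a homeobox gene, lower with set 1 against control (adjusted p = 0.0272) and higher in set 2 against set 1 (0.0289), and Isl1, a LIM-homeodomain gene, higher with set 1 (0.0371) and the siRNA average (0.0367). Isl1 was well above background on 3 set 1 arrays, 1 set 2 array and 0 plasmid or control arrays. It was kept in the test through set 1, the group where it was high, so its p is not read as support for a rise. Lmo3, a LIM-only gene, passed as higher with set 2 (0.0494), Pax6 as higher for the siRNA average and Wnt8b as lower with set 2 in that fit. The plasmid group against the siRNA average gave 4 genes, a comparison where 2.15% of all genes passed: 1 of 26 pallial regulators fell, and 1 of 19 relatives, 1 of 16 cofactors and 1 of 12 hem genes rose.

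Pax6, the paired-box factor of the lateral pallium, fell. Its level was -0.87 ± 0.11 on the plasmid arrays, 0.62 ± 0.61 with set 2, 0.68 ± 0.55 with set 1 and -0.41 ± 0.10 with control siRNAs (SD, n = 3 each), and all plasmid arrays lay below all siRNA arrays. The difference of plasmid from siRNA average was -1.52 ± 0.27 (limma adjusted p = 0.0172). Both siRNA sets also lay above control on all slides, by 1.06 ± 0.27 as an average, at an adjusted p of 0.118 (0.0380 when blocked by slide). Leaving out any 1 of the 3 plasmid arrays raised the adjusted p of the first difference to as much as 0.0795, and in the other 9 such fits it passed.

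Lhx5, a LIM-homeodomain factor of hem and Cajal-Retzius cells, rose by 1.104 ± 0.23 in the plasmid group against the siRNA average (limma adjusted p = 0.0363), but the siRNA sets themselves stood apart. Its level was 0.09 ± 0.03 on the plasmid arrays, -1.82 ± 0.45 with set 2, -0.22 ± 0.40 with set 1 and -1.33 ± 0.36 with control siRNAs (SD, n = 3 each). Blocked by slide, its adjusted p was 0.0515, and it passed in 5 of 12 fits that left out an array. The summed level of 8 markers of Cajal-Retzius cells, Lhx5 among them, ran from 5.53 to 6.19 on the plasmid arrays, 2.34 to 3.11 with set 2, 3.98 to 4.82 with set 1 and 3.46 to 4.13 with control siRNAs. Bright genes weigh most in this sum, here Nhlh2 (mean level 0.67 over all arrays), Ebf3 (-0.57) and Lhx5 itself (-0.82). Of these 8, Ebf2, a helix-loop-helix factor, rose with Lhx5 in the plasmid group against the siRNA average (1.39 ± 0.18, adjusted p = 0.00302) and fell with set 2 against control (-1.16 ± 0.20, adjusted p = 0.0321, limma). In the first comparison 5 of the 8 markers were positive and the others negative. Reln, the secreted protein of these cells, was among the negative ones at -0.79 ± 0.38 (limma adjusted p = 0.416), as was Calb2 at -0.38 ± 0.39. The part of Cajal-Retzius cells in the level of Lhx5 was not tested. Lmo2, a LIM-only cofactor, rose by 1.50 ± 0.24 (adjusted p = 0.0103; 10 of 12), and Msx1, a Bmp-induced homeobox gene of the hem, by 0.76 ± 0.13 (adjusted p = 0.0158; 10 of 12). Without the plasmid array of slide 2 or of slide 3 the adjusted p of Lmo2 was 0.0647 and 0.0532, and that of Msx1 0.0804 and 0.0983. Lmo2 is also a gene of blood and endothelial cells, and summed erythroid markers ran from 5.28 to 11.04 on the plasmid arrays, 3.49 to 7.94 with set 2, 1.78 to 18.7 with set 1 and 1.99 to 3.90 with control siRNAs. Their part in the level of Lmo2 was not tested.

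Other genes of these lists gave values below the threshold. Nfib, a nuclear factor I gene, differed from control by -0.21 ± 0.16 in the plasmid group, 0.10 ± 0.16 with set 2 and 0.27 ± 0.16 with set 1. Nr2f6, the third receptor of the Nr2f branch, differed by 0.29 ± 0.15, 0.33 ± 0.15 and 0.20 ± 0.15 in the same order, with all arrays of each treated group above all control arrays. The hem genes as a list had a median difference of 0.58 in the plasmid group, with 12 of 12 positive (all genes 0.00), and -0.01 with set 2 and 0.17 with set 1. Among them Rspo1, a Wnt agonist, stood 0.64 ± 0.25 above control with the plasmid (adjusted p = 0.891, limma), and Wnt8b, a Wnt ligand of the medial pallium, at -1.002 ± 0.30 with set 2 (adjusted p = 0.177, blocked by slide 0.0428). Summed hem levels ran from 16.4 to 19.2 on the plasmid arrays, 8.61 to 12.48 with set 2, 11.6 to 16.6 with set 1 and 10.2 to 15.2 with control siRNAs. Their part in the levels of the 9 genes was not tested.

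Among themselves the 9 genes ranged over 0.59 (Nr2e1) to 2.25 (Nr2f2) log2 units across the 12 arrays. The group held 63.1% of the variance of Nr2f1, 53.4% for Nr2f2, 51.5% for Emx2, 47.9% for Lhx9, 43.6% for Sp8 and 39.2% for Zbtb20. It held 25.5% for Nr2e1, 23.9% for Lhx2 and 19.9% for Emx1. The slide held between 4.90% (Nr2f2) and 70.8% (Emx1). The highest array was a set 2 array for Nr2f1, Nr2f2, Lhx9 and Zbtb20, and the plasmid array of slide 2 for Emx1, Lhx2 and Sp8.

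For each of the 9 genes the 2 genes most alike were found by Pearson's r over the 12 arrays after the slide mean was subtracted. They were sought among 13753 genes that were well above background on all arrays. Clone and locus names, and any name that starts with a capital letter and a digit, were then left out of the ranking. The pairs found are descriptions without a test, since all points share arrays, groups and scaling, and the highest of many values is high by selection. For Nr2f1 they were Rab13 (r = 0.94) and Itsn2 (0.93), and for Nr2f2 Zfp672 and Acss2 (0.96 each). For Emx1 they were Cfap298 (0.93) and Nme3 (0.91), for Emx2 Mettl14 (0.95) and Tcf3 (0.92), and for Lhx2 Ptma (0.98) and Ubtd2 (0.97). Lhx9 was nearest to Cnbd2 and Hes7 (0.96 each), Sp8 to Cmss1 and Cth (0.97 each), Nr2e1 to Dnajc2 (0.94) and Zfp24 (0.93), and Zbtb20 to Ids (0.97) and Slc44a5 (0.96). No gene was shared between these 9 pairs. Without subtraction of the slide mean the same r were lower for every pair: for Lhx9 they were 0.40 with Cnbd2 and -0.20 with Hes7, so this likeness depended on the subtraction, and for the others they lay between 0.58 (Emx2 with Mettl14) and 0.96 (Nr2f2 with Zfp672).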

How the data were processed

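RNA of sorted cells was labelled with Cy3 and hybridised to 1 array per sample, per the labels' protocols. The intensity taken from the deposited scanner files is gProcessedSignal (Agilent Feature Extraction 10.5.1.1), which per the file headers was background-subtracted and detrended, with no step between arrays. The authors also deposited a table of log2 values, in which scale and centring are not stated; set against the scanner values it correlated above 0.999 on every array, and its medians ran from -0.13 to 0.10. It served as an alternative.

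Control and outlier-marked spots were left out, each array's 75th percentile of log2 signal was subtracted, and spots of a probe were averaged. Probes were named through their RefSeq accession in a GRCm38.p6 gene table, which named 26055 of 39429 probes; the array annotation used another build, so probe positions are not given. Probes well above background on at least 3 of 12 arrays were kept, and the probe with the highest mean represented each gene, which left 15369 genes. Differences were fitted with limma 3.58.1 (R 4.3.3; lmFit and eBayes, all 12 arrays, 8 residual degrees of freedom, two-sided, Benjamini-Hochberg over all genes, threshold 0.05). SE and 95% intervals are limma's. No spot was saturated, and 3 arrays per group limit the precision. The fit was tested on simulated data.

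The 9 genes, the lists and the tests were chosen with earlier results of these data known. Named besides the 9 were Dmrt3 and Dmrta2, each list gene past the threshold, up to 2 more per list by mean level, the 2 genes most alike to each of the 9, and defining markers of other cell types. One gene that this rule named is not reported here. Alternatives were normexp background correction, quantile normalization, the deposited log2 values, other filters, probe means, single probes, the slide as a block, only the groups compared, and each array left out.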

Additional observations from a re-analysis of the deposited data

Results flagged for a closer look

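Emx1 was picked out because set 2 and set 1 stood on opposite sides of control on all 3 slides, at 0.072 and -0.13 on average. The same held for the plasmid group and set 1, at 0.14 and -0.13. The test of set 2 against set 1 gave 0.20 ± 0.20 (SE; limma adjusted p = 0.848, or 0.395 when blocked by slide), and the difference between the plasmid group and set 1 alone was not tested. All 3 differences were small beside the spread of Emx1 between slides.

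Nr2f1 was picked out because the plasmid group and set 2 stood on opposite sides of control on all 3 slides, at -0.35 and 0.46 on average. That difference itself was not tested. The plasmid group against the average of both sets gave -0.50 ± 0.19 (SE; limma adjusted p = 0.256), lower in 3 of 3 slides.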

How the results depend on the processing

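Of 510 values of the 9 genes under other settings, 483 kept their direction and their side of the threshold, 22 changed sign and 5 passed in the same direction; of 648 with an array left out, 618 did so and 30 changed sign. Genes passed only under normexp correction, which left 3 arrays with a high floor: the 1st percentile of the corrected signal was 1706 and 2598 on plasmid replicates 1 and 2 and 264 on set 1 replicate 2, against 54.7 to 56.1 on the other 9. It moved the median of all genes by 0.44 for plasmid against control, 0.39 for plasmid against the siRNA average and 0.11 for set 1. Under it 9909 and 10693 genes and 4 and 5 of the 9 passed in the plasmid comparisons, and 0 genes in the other 4. For plasmid against control Emx1 turned to -0.88, Lhx2 to -1.15 and Sp8 to -0.83; for plasmid against the siRNA average Emx1 turned to -0.83, Emx2 to -0.046, Lhx2 to -0.99, Sp8 to -0.54 and Nr2f2 to 0.18; and Zbtb20 to 0.019 for set 2 against set 1. Local background subtraction in its place, chosen after seeing the data, called 0 of the 9, and 44 genes for the siRNA average, 68 for set 2 and 23 for set 2 against set 1; Emx2 turned to 0.0072 for set 1. Quantile normalization turned Emx1 to 0.0062 for the siRNA average and Lhx2 to 0.037 for set 1.

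Lhx9 turned with its probes. Probe means gave 0.021 for plasmid against control, -0.0082 for set 2 and -0.35 for set 2 against set 1. The probes A_55_P2111267 and A_55_P2117853 gave 0.10 and 0.11 for plasmid against control, -0.31 and -0.051 for set 2, and -0.80 and -0.56 for set 2 against set 1; the first gave 0.0072 for plasmid against the siRNA average. Over all genes, no filter called 37 for the siRNA average, 26 for set 2 and 0 for set 2 against set 1; only the groups compared called 36 for the siRNA average, 0 for set 2, 0 for set 1 and 0 for set 2 against set 1; and detection on all 12 arrays called 26 for the plasmid. The cause was not tested.

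With the replicate number, which is the slide, as a block, 0 of the 9 genes passed in any comparison, and 233 genes passed for the siRNA average (103 without), 114 for set 1 (36), 365 for set 2 (157), 33 for set 2 against set 1 (12) and 526 for plasmid against the siRNA average (330). Arrays of 1 number deviated together at r of 0.02 to 0.60 over 18 pairs, above 0.1 in 16, so the deviation shared within a slide was weak in some pairs. Leaving out each array called 0 to 0 of the 9 in every comparison, and 17 to 87 genes for the siRNA average, 4 to 83 for set 1, 10 to 143 for set 2, 18 to 55 for the plasmid, 0 to 12 for set 2 against set 1 and 106 to 330 for plasmid against the siRNA average.
With an array left out these log2 differences changed sign, given as lowest to highest. For plasmid against control they were Lhx2 -0.068 to 0.12, Lhx9 -0.25 to 0.031, Sp8 -0.12 to 0.14 and Zbtb20 -0.45 to 0.072. For plasmid against the siRNA average they were Nr2f2 -0.16 to 0.21. For the siRNA average they were Emx1 -0.12 to 0.068 and Nr2e1 -0.16 to 0.044. For set 1 they were Emx1 -0.23 to 0.063, Emx2 -0.095 to 0.082, Lhx2 -0.20 to 0.038, Lhx9 -0.086 to 0.19, Nr2f1 -0.30 to 0.11 and Nr2f2 -0.21 to 0.55. For set 2 they were Emx1 -0.024 to 0.19 and Nr2e1 -0.074 to 0.13. For set 2 against set 1 they were Sp8 -0.31 to 0.00067 and Zbtb20 -0.21 to 0.15.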
